A study of Mus musculus with 4 samples.

Results

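The genes described here encode 10 chromatin enzymes of the vitamin C-dependent dioxygenase family: the DNA-modifying enzymes Tet1, Tet2 and Tet3, and the JmjC histone demethylases Kdm2a, Kdm2b, Kdm3a, Kdm4a, Kdm4c, Kdm5b and Kdm6b. They were taken by symbol from the annotation of a whole mouse genome array. All 10 were found, among 21260 gene symbols, and they were measured by 21 of 41174 probes, each a 60-base oligonucleotide. Every probe is reported on its own.

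Liver RNA came from 4 Wrn mutant mice and 4 wild-type mice, all C57Bl/6 males 3 months of age. The mutants had received 0.4% vitamin C in their drinking water since weaning, and the wild-type animals were untreated. Wrn encodes a RecQ-type DNA helicase; the sources used here do not name the mutant allele. On each of 4 two-colour arrays, RNA of 1 treated mutant (Cy5) was set against that of 1 wild-type animal (Cy3), always with the same dyes. Genotype, vitamin C and dye therefore cannot be told apart in any value below, and all log2 ratios are treated mutant over wild type.

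TET proteins oxidise 5-methylcytosine in DNA, which starts its removal, and JmjC demethylases take methyl groups off histone lysines. Both use ferrous iron, oxygen and 2-oxoglutarate, and ascorbate helps to keep the iron reduced. The liver is where mice make their own vitamin C. Arrays measure transcripts of these enzymes, not their activity.

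Between 82.5% and 95.6% of all probes were well above background in the mutant channels and between 84.2% and 96.1% in the wild-type channels, with array 1 lowest in both. All 21 probes of the dioxygenase genes passed the filter on dim probes. Of these, 20 were well above background in all 8 channels, and the remaining one, Tet3 A_51_P199339, was so on 3 arrays in each channel. None of the 21 was saturated or carried an outlier flag. With 4 arrays, precision is limited by their number. Wrn itself, read by 4 probes, gave no check of the labels. Probe A_51_P325247 was higher in the treated mutants, with a mean log2 ratio of 0.46 ± 0.11 (SD, n = 4) and no overlap (limma adjusted p = 0.0139). Probes A_52_P383506 and A_52_P498492 had 0.00 ± 0.02 and -0.10 ± 0.08 and did not pass. The other was not well above background on any array and was not tested. The sources used here do not say which probes lie in the mutated part.

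Probes for the same gene read different stretches of its transcript, and their results differed for several members, so the stretches behind those results are shown first. Each line gives 30 of the 60 bases of a probe as deposited, with stop triplets (TAA, TAG or TGA) of any of the 3 forward frames in capitals. The longest run of bases shared by any 2 of the 21 probes was 10.
Tet2 A_52_P502083: aaagTAGctacagaaagctTAAgTGAaTAA
Tet2 A_51_P340083: TAAtttaccatcagtcacatttgtcacTAA
Tet3 A_51_P199339: cccTGAaaggtggacctgggttccaagaca
Tet3 A_52_P491273: accaaggcTGAgaacccactcacaccaacc
Tet3 A_52_P173108: aggTGAactTAAcaaccatactTGAatatt
Kdm2a A_52_P92557: gactggtTGAatccccacctgcctctcTAA
Kdm2a A_52_P1117630: atcTAGaatttttgTGActtgttcTGATAA
Kdm3a A_51_P116309: tttTAActatTAGggatcactgcgaagttt
Kdm3a A_52_P133965: TGATGAactcacaatcaagagatttatTGA
Kdm3a A_51_P489406: tttggatttTGAaTAGccaagtatgttTGA
Kdm4c A_52_P320170: tggTGAagatatcaatggatatatttgTGA
Kdm4c A_51_P150354: cacatttgttttcagtggcagtttttaTAA
Kdm6b A_51_P122017: ggtgttcaacatcctgttcgttacaagTGA

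Over their full 60 bases, 3 probes held a stop triplet in all 3 forward frames: Tet2 A_52_P502083, Tet3 A_52_P173108 and Kdm2a A_52_P1117630. A stretch of that kind cannot be coding over its whole length. The other 18 had at least 1 open frame. GC content ran from 28.3% to 55.0%. The deposited annotation ties 2 probes, Kdm2a A_52_P1117630 and Kdm3a A_51_P489406, to a transcript model or cDNA clone with no RefSeq transcript.

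The comparison asked how liver transcripts of the enzymes differed between treated mutants and wild-type mice. Kdm3a had the lowest adjusted p, with 2 of its 3 probes lower by 0.42 and 0.46 on the log2 scale, and single probes of Kdm6b, Kdm4c, Kdm2a and Tet2 were lower by 0.30 to 0.38. A single probe, of Tet3, was higher, by 0.25. In all, 7 probes passed the test, 6 of them lower and 1 higher, and 14 did not (limma, adjusted p under 0.05 over 39080 probes). That is 33.3% of the 21 probes, beside 12.3% of all probes tested, of which 6.32% were lower and 6.00% higher. The median log2 ratio of the 21 probes was -0.07, beside 0.00 over all probes, and their median SD of 0.114 was close to the 0.120 of all probes. For 9 of the 21 probes all 4 arrays gave the same sign, as for 40.3% of all probes; 7 were negative throughout and 2 positive (18.8% and 21.5% of all probes). None of the 7 calls held without the pairing of animals within arrays, or without array 2. With the channels treated as unpaired samples the lowest adjusted p of the 21 probes in limma was 0.144. There 7 of the 21 probes and 4457 of all probes had an unadjusted p under 0.05, and 28 of all probes passed. Without array 2 the lowest adjusted p of the 21 probes was 0.0675. There 8 of the 21 probes and 9880 of all probes had an unadjusted p under 0.05, and 12 of all probes passed. The log2 ratios of the called probes without array 2 were -0.41 and -0.43 for Kdm3a, -0.44 for Kdm6b and -0.29 for Kdm4c. They were -0.34 for Kdm2a, -0.31 for Tet2 and 0.23 for Tet3. In bulk liver, fewer cells of a type and less RNA per cell cannot be told apart.

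Among the TET genes, 1 of 6 probes was lower, 1 was higher and 4 did not pass, and the median log2 ratio was 0.04. Tet1, which carries a DNA-binding CXXC domain, was read by 1 probe with log2 ratios of -0.01, 0.15, -0.01 and 0.33 on arrays 1 to 4, a mean of 0.12 ± 0.16 (SD, n = 4; adjusted p = 0.295). Arrays 1 and 3 sat at 0 and arrays 2 and 4 above it. Its log2 level ran from 10.6 to 11.6 in the mutants and from 10.6 to 11.6 in the wild-type animals, so the arrays differed by more than the animals that shared an array.

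Tet2, which lacks a CXXC domain of its own and is widely expressed in adult tissue, was read by 2 probes that gave different results. Probe A_52_P502083 had log2 ratios of -0.07, -0.29, -0.42 and -0.45, a mean of -0.31 ± 0.17 (SD, n = 4; 95% interval -0.48 to -0.13; adjusted p = 0.0424). Its log2 levels were 7.64, 7.53, 7.44 and 7.43 in the mutants and 7.70, 7.76, 7.76 and 7.77 in the wild-type mice, so the groups did not overlap, and array 1 held the smallest gap. Probe A_51_P340083 had log2 ratios of -0.02, -0.03, -0.15 and 0.01, with a mean of -0.05 ± 0.07 (adjusted p = 0.573). The difference between the 2 probes was 0.26 ± 0.16 (SD, n = 4) and had the same sign on all 4 arrays. Averaged over both probes, Tet2 had a log2 ratio of -0.18 and did not pass (adjusted p = 0.0775). The lower probe is also past the threshold by little: the authors' deposited table gives it an adjusted p of 0.0516, and without the filter on dim probes its adjusted p was 0.0511.

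Tet3, the TET enzyme of the oocyte that is also expressed in many adult tissues, gave opposite signs on its 3 probes. Probe A_51_P199339 had log2 ratios of 0.24, 0.30, 0.23 and 0.21, a mean of 0.25 ± 0.04 (SD, n = 4; 95% interval 0.13 to 0.36; adjusted p = 0.0286). Its log2 levels were 7.34, 7.25, 7.30 and 7.39 in the mutants and 7.18, 7.04, 7.13 and 7.22 in the wild-type mice, with no overlap. Probe A_52_P491273 pointed the same way at 0.13 ± 0.11 without passing (adjusted p = 0.170). The brightest Tet3 probe, A_52_P173108, had log2 ratios of -0.31, -0.25, 0.08 and -0.21, a mean of -0.17 ± 0.17 (adjusted p = 0.155). It lay below A_51_P199339 on all 4 arrays, by 0.42 ± 0.19. The mean over the 3 probes was 0.07 (adjusted p = 0.335). With normexp background correction and loess the log2 ratio of A_51_P199339 was 0.18 (adjusted p = 0.0399), and with normexp and median centring in place of loess it was 0.07 and did not pass (adjusted p = 0.358). Agilent's own ratio, which differs in background and dye steps, gave 0.18 without passing (adjusted p = 0.132).

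Among the JmjC genes, 5 of 15 probes were lower, none was higher and 10 did not pass, and the median log2 ratio was -0.16. Kdm3a, which removes repressive methyl groups from histone H3 and is known for its induction by hypoxia and its part in metabolic gene control, was read by 3 probes. The brightest, A_51_P116309, had log2 ratios of -0.39, -0.43, -0.42 and -0.43, a mean of -0.42 ± 0.02 (SD, n = 4; 95% interval -0.53 to -0.31; adjusted p = 0.0124), 1.33-fold lower in the treated mutants. Mutant log2 levels were 10.95, 10.77, 10.94 and 10.77 and wild-type levels 11.34, 11.19, 11.35 and 11.19, so the highest mutant lay below the lowest wild-type animal. Arrays 1 and 3 were high and arrays 2 and 4 low in both channels, and the gap between the channels stayed near 0.42 on each. Of all probes tested, 2.29% had a mean log2 ratio at least as far from 0 as the -0.46 of Kdm3a A_52_P133965, described next.

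A dimmer Kdm3a probe, A_52_P133965, had log2 ratios of -0.37, -0.56, -0.50 and -0.41, a mean of -0.46 ± 0.09 (SD, n = 4; adjusted p = 0.0129), 1.38-fold lower. Its levels overlapped between the groups, because array 1 was bright in both channels. The third, A_51_P489406, which the annotation ties to a cDNA clone, had log2 ratios of 0.12, 0.18, -0.10 and 0.03 and a mean of 0.06 ± 0.12 (adjusted p = 0.559). It lay above A_51_P116309 by 0.47 ± 0.12 and above A_52_P133965 by 0.52 ± 0.15, on 4 of 4 arrays each. The mean of the 3 probes, -0.27, passed (adjusted p = 0.0232). Both lower Kdm3a probes kept their call without array 1, without array 3 and without array 4, which no other member's probe did. The calls for Tet2 and Kdm4c held without array 1 only, and those for Tet3, Kdm2a and Kdm6b were lost whichever array was left out. The log2 ratios themselves stayed at 0.23 to 0.26 for Tet3, -0.34 to -0.25 for Kdm2a and -0.45 to -0.29 for Kdm6b in those fits of 3 arrays, and at -0.38 to -0.26 for Tet2 and -0.39 to -0.29 for Kdm4c.

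The genes most like Kdm3a A_51_P116309 over the 8 channel levels, by Pearson correlation among 20687 genes, were Celf1 (r = 0.989), an RNA-binding protein, Gphn (0.988), the scaffold protein gephyrin, and Ptprk (0.988), a receptor tyrosine phosphatase. The 8 channels share arrays in pairs, and the r values are a description only. Their mean log2 ratios were -0.40 ± 0.04, -0.25 ± 0.02 and -0.29 ± 0.07 (SD, n = 4).

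Kdm6b, which removes a repressive Polycomb mark from histone H3 and is induced in macrophages by inflammatory signals, was read by 1 probe. Its log2 ratios were -0.45, -0.23, -0.18 and -0.68, a mean of -0.38 ± 0.23 (SD, n = 4; 95% interval -0.59 to -0.18; adjusted p = 0.0392), 1.31-fold lower. All 4 ratios were negative, with arrays 1 and 4 further from 0 than arrays 2 and 3. Mutant log2 levels were 11.52, 11.20, 11.54 and 11.22 and wild-type levels 11.96, 11.43, 11.72 and 11.89. The groups overlapped, since the wild-type animal of array 2 lay below the mutants of arrays 1 and 3.

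Kdm4c and Kdm4a encode related demethylases with tandem Tudor domains that bind methylated histones. Kdm4c A_52_P320170 had log2 ratios of -0.17, -0.48, -0.36 and -0.35, a mean of -0.34 ± 0.13 (SD, n = 4; 95% interval -0.48 to -0.19; adjusted p = 0.0257). Mutant levels ran from 7.45 to 7.62 and wild-type levels from 7.75 to 7.83, without overlap. The brighter Kdm4c probe, A_51_P150354, was negative on all 4 arrays too, with log2 ratios of -0.12, -0.28, -0.18 and -0.06 and a mean of -0.16 ± 0.09, and did not pass (adjusted p = 0.0964). It lay above the other probe by 0.17 ± 0.10 on 4 of 4 arrays, and the mean of both, -0.25, passed (adjusted p = 0.0370). With Agilent's own ratio A_52_P320170 had -0.26 and did not pass (adjusted p = 0.0873).

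Neither Kdm4a probe passed. A_52_P281209 had a mean log2 ratio of -0.02 ± 0.11 (SD, n = 4; 95% interval -0.16 to 0.12; adjusted p = 0.871). A_52_P633988 had 0.41 on array 1 and lay between -0.06 and 0.05 elsewhere; the mean was 0.10 ± 0.22 (adjusted p = 0.468).

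Kdm2a and Kdm2b encode CXXC-domain demethylases that bind unmethylated CpG islands. The brighter Kdm2a probe, A_52_P92557, had log2 ratios of -0.31, -0.18, -0.26 and -0.45, a mean of -0.30 ± 0.11 (SD, n = 4; 95% interval -0.44 to -0.16; adjusted p = 0.0297). Mutant levels were 11.60, 11.34, 11.38 and 11.25 and wild-type levels 11.91, 11.51, 11.65 and 11.69, so every mutant lay below its array partner but the groups overlapped. The other probe, A_52_P1117630, had the largest spread of all 21: its log2 ratios were 0.12, -0.73, -0.12 and -0.84, a mean of -0.39 ± 0.47 (adjusted p = 0.145). Arrays 2 and 4 were strongly negative and array 1 was positive.

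The 3 Kdm2b probes had mean log2 ratios of 0.07 ± 0.25, -0.07 ± 0.08 and 0.06 ± 0.08 (SD, n = 4), with adjusted p from 0.400 to 0.645. For the first of them, A_51_P139597, the ratios were -0.06, -0.21, 0.34 and 0.21, so 2 arrays lay on each side of 0.

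Kdm5b, which removes methyl marks of active promoters, did not pass on either probe. A_52_P584874 had log2 ratios of -0.16, 0.10, -0.23 and -0.40, a mean of -0.17 ± 0.21 (SD, n = 4; adjusted p = 0.20). A_52_P601980 had a mean of 0.00 ± 0.07 (95% interval -0.12 to 0.12; adjusted p = 0.996). Its level differed much more between arrays than within them: mutant log2 levels were 10.34, 11.28, 11.38 and 10.58, and the wild-type levels beside them 10.39, 11.18, 11.37 and 10.64.

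**Figure D1:**
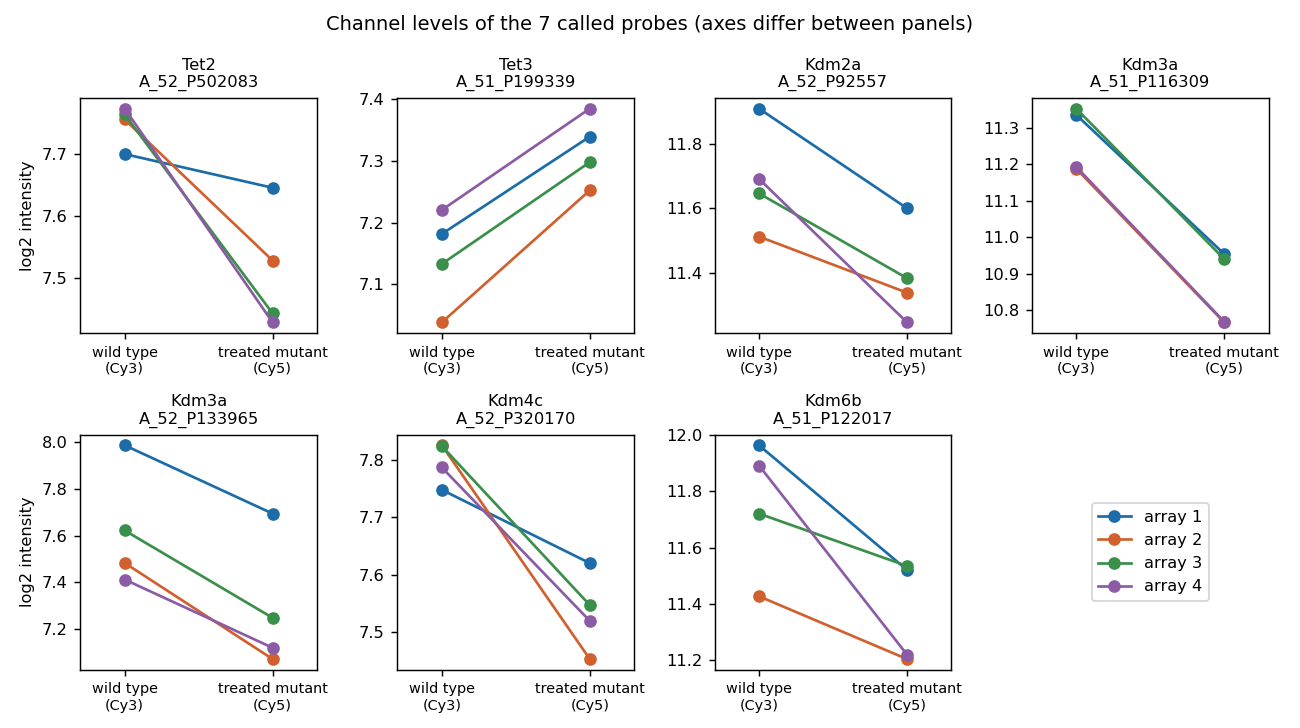
Log2 intensity of the 7 probes that passed the test, in the wild-type (Cy3) and treated mutant (Cy5) channel, with the 2 animals of 1 array joined by a line; the vertical axes differ between panels. Groups are apart for Tet2 A_52_P502083, Tet3 A_51_P199339, Kdm3a A_51_P116309 and Kdm4c A_52_P320170, and overlap for the other 3.

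Levels of the groups did not overlap for 4 of the 21 probes (3 lower, 1 higher), where 7.15% of all probes tested did not overlap (4.27% lower, 2.88% higher). The called probes included all of the 4 dimmest: those with a signal under 200 intensity units above local background in all 8 channels were Tet2 A_52_P502083, Tet3 A_51_P199339, Kdm3a A_52_P133965 and Kdm4c A_52_P320170. Of the 17 brighter probes, 3 were called. Over the whole array the share called was 10.3% among probes that dim and 12.7% among the others. For these dim probes plain background subtraction gives larger ratios than normexp correction, which gave log2 ratios of -0.24, 0.18, -0.34 and -0.26 in that order, and all 4 passed there too. The part of low signal in these 4 results was not tested. Of 14 pairs of probes for the same gene, 7 differed in the same direction on all 4 arrays, and averaging the probes of each gene left 3 of the 10 genes called, Kdm3a, Kdm4c and Kdm6b, beside 11.0% of all genes.

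The rest of the family and its neighbours were read by the brightest probe of each gene, of which 12.4% were called over the array (6.48% higher, 5.88% lower), with a median log2 ratio of 0.01. Of 23 other JmjC genes measured, 7 passed, 6 of them lower and 1 higher, and the median was -0.04. With normexp and median centring in place of loess, 6 were lower and 4 higher, and by the mean of each gene's probes 5 were lower and 1 higher. The largest decrease was in Phf8, a demethylase of the KDM7 group, with log2 ratios of -0.49, -0.29, -1.04 and -0.51, a mean of -0.58 ± 0.32 (SD, n = 4; adjusted p = 0.0298); the mean of its 2 probes, -0.30, did not pass (adjusted p = 0.0878). Kdm6a, the X-linked relative of Kdm6b, fell by 0.42 ± 0.13 (adjusted p = 0.0182), and Jmjd4, a hydroxylase of a translation factor, fell by 0.32 ± 0.13. The gene that rose was Tyw5, a JmjC hydroxylase that modifies transfer RNA, at 0.59 ± 0.08 (adjusted p = 0.0088). Kdm3b, the closest relative of Kdm3a, had log2 ratios of -0.26, -0.26, -0.38 and -0.30 and also fell, by 0.30 ± 0.06 (adjusted p = 0.0204).

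Of 32 genes listed as histone methyltransferases, 7 were lower and none was higher, with a median log2 ratio of -0.10. Over the array 5.88% of genes were lower and 6.48% higher by their brightest probe. With normexp and median centring in place of loess, 3 were lower and 1 was higher. By the mean of each gene's probes, 5 were lower and none was higher. Ehmt1, lower by its brightest probe at -0.24, had a mean of 0.01 over its 2 probes and did not pass (limma adjusted p = 0.888). Setd1b, which methylates histone H3 at active promoters, fell by 0.55 ± 0.09 (SD, n = 4; adjusted p = 0.0107). Ehmt2, which places the repressive mark that Kdm3a removes, fell by 0.37 ± 0.13 (adjusted p = 0.0223). Kmt2e, listed on the array as Mll5, fell by 0.33 ± 0.14.

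Genes of DNA methylation and its removal had 1 of 21 lower and 1 higher, with a median of -0.12. For this list and the next 2, the share called over the array was 12.4% of genes by their brightest probe (6.48% higher, 5.88% lower). The de novo methyltransferase Dnmt3a fell by 0.27 ± 0.16 (SD, n = 4; adjusted p = 0.0494), although the mean of its 3 probes did not pass (adjusted p = 0.0762). By the mean of each gene's probes, 1 gene was still lower, but it was Oga, listed on the array as Mgea5. Its 4 probes had a mean of -0.34 (limma adjusted p = 0.0246), while its brightest probe had -0.19 and did not pass (adjusted p = 0.118). Mbd3, a subunit of a nucleosome-remodelling deacetylase complex, rose by 0.26 ± 0.09 (adjusted p = 0.0314). Of the 11 flavin-dependent demethylases and AlkB-type dioxygenases, Kdm1b, a flavin-dependent histone demethylase, was higher at 0.26 ± 0.10 (adjusted p = 0.0372), and 10 did not pass. Of the 26 enzymes of 2-oxoglutarate, succinate and fumarate, which supply or drain the cosubstrate and the inhibitory products of these dioxygenases, only liver glutaminase, Gls2, passed, higher at 0.32 ± 0.20 (adjusted p = 0.0486); with normexp and median centring in place of loess 11 of them passed, all higher. In each of the 5 lists, 0 genes were called by limma without array 2 or with the channels treated as unpaired, where 9880 and 4457 of all probes had an unadjusted p under 0.05.

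**Figure D2:**
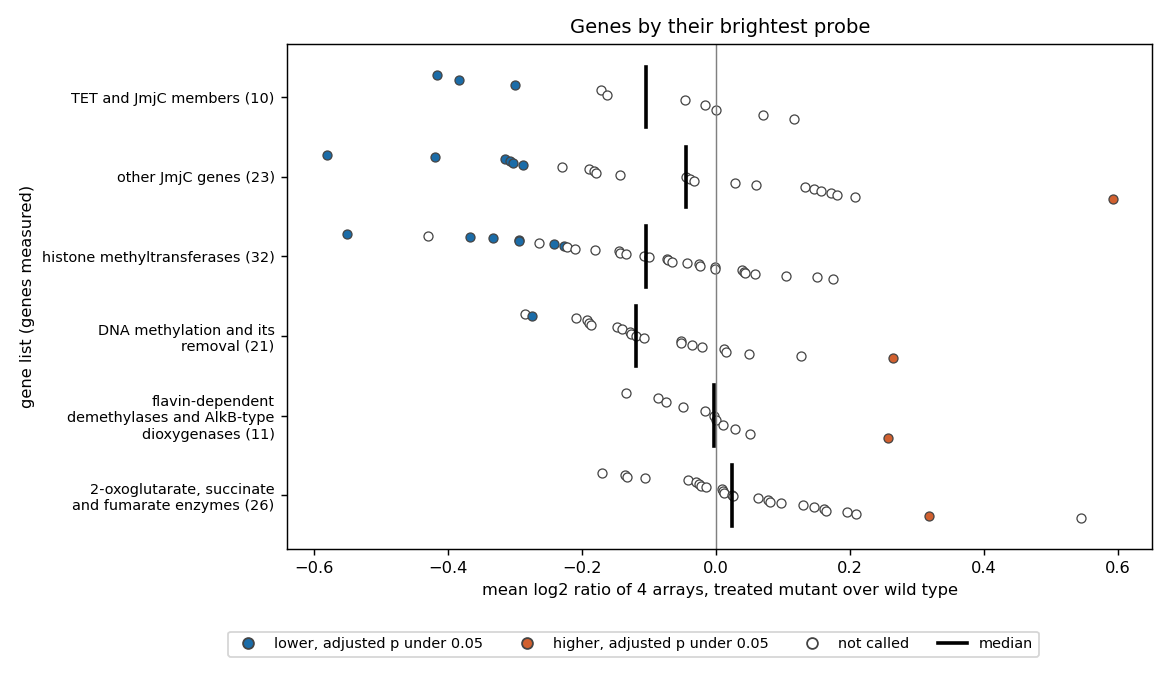
Mean log2 ratio of the 4 arrays (treated mutant over wild type) for each gene of 6 lists, read by its brightest probe; filled blue points are lower and filled orange points higher at an adjusted p under 0.05, open points did not pass, and the black bar is the median. The list medians lie between -0.12 and 0.02.

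Markers of the liver's cell types were read beside these results. All 6 hepatocyte markers were well above background, at a mean log2 level of 16.2 to 16.3 in the mutants and 15.9 to 16.3 in the wild-type mice; Alb (0.83) and Ttr (0.45) were higher and Hnf4a (-0.25) was lower. Among cholangiocyte markers Spp1 (-0.63) and Sox9 (-0.62) were lower, 3 of 5 did not pass, and the mean level was 9.41 to 9.82 in the mutants and 9.80 to 9.85 in the wild-type mice. Of 6 sinusoidal endothelial markers Clec4g (-0.35) and Kdr (-0.24) were lower, with mean levels of 11.6 to 11.7 against 11.7 to 12.0. Col1a1 (-0.35) was lower among 5 stellate cell markers, at 10.6 to 10.7 against 10.6 to 10.8. The other 4 stellate markers did not pass, and that list reached up to 0.18. Median log2 ratios were 0.07 for hepatocyte, -0.18 for cholangiocyte, -0.16 for endothelial and -0.07 for stellate markers. Over the array 12.4% of genes were called by their brightest probe. None of the 6 Kupffer cell or 6 lymphocyte markers passed. No marker list was below background; 1 cholangiocyte marker was not well above it in every channel. The part of cell composition in the decreases of Kdm3a, Kdm6b, Kdm4c and Kdm2a was not tested.

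**Figure D3:**
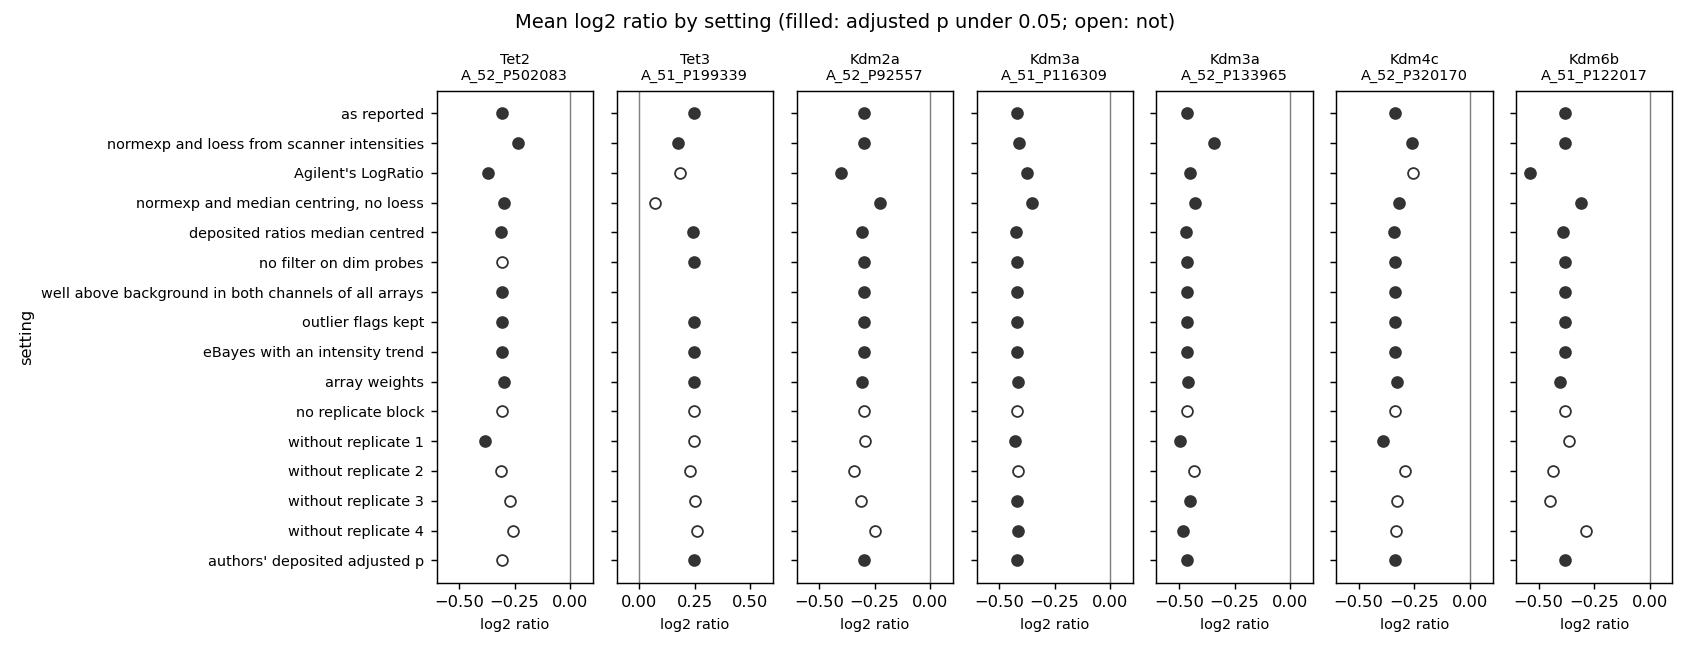
Mean log2 ratio of the 7 called probes under each processing setting, with filled points at an adjusted p under 0.05 and open points above it. The ratios keep their sign throughout, and every point is open without the replicate block and without replicate 2.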

How the data were processed

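Per the file headers, Agilent Feature Extraction 10.5.1.1 gave the intensity of each spot and its local background, and a log10 ratio of red (Cy5) over green (Cy3). The authors' deposited table gives a log2 ratio per array, its mean, a p-value with its adjusted p-value, and scores (moderated statistic, log odds, signed fold). The submitters' processing notes name limma without a version. Set against the scanner values, the deposited log2 ratios equalled those after subtracting the local background and loess (slope 1, r = 1 across probes on each array); this was found from the values, not stated.

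Deposited ratios of 43379 spots were averaged per probe. Spots with an outlier flag (0.0929% of values) were set to missing where the probe had 1 spot. Of 41174 probes, 39080 were kept: well above background in Cy5 or in Cy3 on at least 3 arrays, with a ratio on at least 3. The mean ratio was tested against 0 with lmFit and eBayes (R 4.3.3, limma 3.58.1; Benjamini-Hochberg over all kept probes), so mutant and wild type of 1 array form a pair. Deviations of same-array channels correlated at 0.942, 0.690, 0.672 and 0.722, and those of channels on different arrays at 0.490 at most. Both channels of an array share its spots, so these values cannot show whether the animals themselves were matched. The labels call the 4 arrays independent biological replicates. Levels are log2 intensities after normexp (offset 50), loess and Aquantile, and are open to dye bias. Scripts were tested on simulated data.

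The enzymes and lists were chosen with earlier results of these data known. Named beyond them are Wrn, up to 3 called genes per list and direction by size, and the 3 genes most like the called probe of lowest adjusted p. Kdm3b, Oga and the named cell type markers were picked with their values in view. The alternatives concerned background, normalization, filters, moderation, pairing and each array left out. Genome positions were not used.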

Additional observations from a re-analysis of the deposited data

Results flagged for a closer look

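For each of the 21 probes the 4 log2 ratios, the 4 mutant levels and the 4 wild-type levels were examined, and 2 of these 63 groups held a sample whose gap to its neighbour exceeded Dixon's 95% limit, and chance flags about 1 group in 20. For Tet2 A_51_P340083 the wild-type animal of array 1 had a log2 level of 8.38, above the other wild-type animals at 8.11 to 8.14; the mutant on the same array was the highest mutant too, at 8.37. For Kdm2b A_51_P139597 the wild-type animal of array 4 had 12.08, below the others at 12.20. Neither probe passed the test between the groups.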

How the results depend on the processing

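The 7 calls among the 21 probes kept their direction under every alternative, and 5 to 7 of them stayed called under each alternative other than the unpaired fit and the fits that leave out an array. With no replicate block, that is with the pairing of animals within arrays ignored, 0 probes of the dioxygenase genes and 0 genes of each of the 5 related lists were called (28 of all probes); 7 of the dioxygenase probes and 4457 of all probes had an unadjusted p under 0.05 there. Leaving out 1 array gave 0 to 4 called probes of the dioxygenase genes and 12 to 1587 of all probes, beside 4814 with all arrays: 4 without array 1, 2 each without arrays 3 and 4, and 0 without array 2, where 8 had an unadjusted p under 0.05. The lists then gave 0 to 3 other JmjC genes, 0 to 3 histone methyltransferases, and 0 genes in the other 3 lists. With Agilent's ratio, 1196 of all probes were called, Tet3 A_51_P199339 (0.18, adjusted p = 0.132) and Kdm4c A_52_P320170 (-0.26, adjusted p = 0.0873) were lost, and 2 other JmjC genes, 1 histone methyltransferase and 0 genes of the other 3 lists passed. With normexp, median centring and no loess, 7303 of all probes were called, 58.8% of them higher against 48.7% in the deposited ratios; the call for Tet3 was lost, and 4 histone methyltransferases (3 lower, 1 higher), 10 other JmjC genes (6 lower, 4 higher), 1 DNA methylation gene (higher) and 11 genes of 2-oxoglutarate, succinate and fumarate (all higher) passed. Without the filter on dim probes Tet2 A_52_P502083 missed the threshold (adjusted p = 0.0511), and 1 DNA methylation gene and 0 of the 2-oxoglutarate list passed. The 2-oxoglutarate list also gave 0 after median centring of the deposited ratios, with an intensity trend and by the authors' deposited adjusted p, by which 4 histone methyltransferases and 1 DNA methylation gene passed. Tet3 A_51_P199339 was not tested under the strict filter. Signs turned only for probes that were not called. With Agilent's ratio Tet2 A_51_P340083 was at 0.012, Kdm3a A_51_P489406 at -0.064 and Kdm4a A_52_P633988 at -0.038, and with median centring Kdm4a A_52_P281209 was at 0.083. Kdm5b A_52_P601980 was at -0.0016 with normexp, -0.0059 after centring and -0.0049 with array weights. Leaving out 1 array gave -0.019 to 0.17 for Kdm2b A_51_P139597, -0.061 to 0.026 for Kdm4a A_52_P281209, -0.0085 to 0.15 for Kdm4a A_52_P633988 and -0.031 to 0.019 for Kdm5b A_52_P601980. The cause of these changes was not tested.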
